A study of Mus musculus with 17 samples.

Results

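The comparison described here is an interaction: the fold response of new RNA to 4-hydroxytamoxifen (4OHT) in the presence of the kinase inhibitor PP1, minus the fold response to 4OHT without an inhibitor. It compares 11 of the 17 libraries of the study, with the spread estimated from all 17. The members are all 14907 genes tested, of which 3943 had an interaction past the threshold. The mouse embryonic stem cells used derive from E14tg2a (129SV) and lack Erk1 and Erk2, carry a cDNA for FLAG-ERK2 Q103A, and stably express a cRAF-ErT2 cassette. All groups share this genotype and the same preceding 24 h in serum medium with LIF and 250 nM PD173074, a blocker of FGF receptors, after culture with LIF and Chir99021. The PP1_4OHT group received 2 µM PP1 and 250 nM 4OHT for 2 h (n = 3, clones a, b and c), and the PP1 group received 2 µM PP1 alone (n = 3, clones a, b and c, the last matched by a column name with an extra letter). The 4OHT group received 250 nM 4OHT for 2 h with no inhibitor (n = 3, clones a, b and c), and the DMSO group neither agent (n = 2, clones b and c). How long PP1 alone was present is not stated clearly in the labels. Replicates are clones of 1 engineered line, so p-values measure the spread between these clones only.

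ERK1 and ERK2 are the last kinases of the RAS, RAF, MEK and ERK cascade, which carries signals of growth factors such as FGF4 to the nucleus. In embryonic stem cells ERK activity switches on immediate early genes and feedback inhibitors of the pathway, and it favours exit from the naive pluripotent state. 4OHT activates RAF fused to the modified oestrogen receptor domain ErT2 and so starts the cascade from the level of RAF. The Q103A change enlarges the ATP pocket of ERK2, which lets inhibitors of the PP1 family block it. PP1 itself is also known as an inhibitor of Src family kinases. The interaction asks which genes kept their fold response to 4OHT when PP1 was present and which lost it.

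Ethynyl uridine (5 mM) was added 15 minutes before harvest and labelled RNA was captured, so counts follow recent transcription more than stored mRNA. Totals per library lay between 5239690 counts (PP1, clone a) and 11093390 counts (DMSO, clone b), and 14 loci of very high counts took between 9.38% (4OHT, clone a) and 42.0% (PP1, clone a) of a library. Levels are given as CPM, counts per TMM-scaled library size. The 9 stem cell markers summed to 3626 to 3859 CPM in PP1_4OHT, 3287 to 3701 CPM in PP1, 3088 to 3439 CPM in 4OHT and 3330 to 3587 CPM in DMSO libraries. Of 13 markers of feeder fibroblasts, 9 averaged under 1 CPM over the 11 libraries and S100a4 was at 0. The fibroblast sum followed Fn1, which stem cells also transcribe, and lay at 419 to 544 CPM in PP1_4OHT, 548 to 776 CPM in PP1, 186 to 325 CPM in 4OHT and 543 to 602 CPM in DMSO libraries. Markers of primitive endoderm summed to 9.62 to 13.9 CPM in PP1_4OHT, 18.4 to 25.5 CPM in PP1, 9.26 to 15.4 CPM in 4OHT and 17.3 to 17.5 CPM in DMSO. Markers of trophoblast summed to 12.2 to 13.4 CPM in PP1_4OHT, 12.0 to 15.0 CPM in PP1, 19.7 to 29.2 CPM in 4OHT and 11.8 to 13.0 CPM in DMSO, and 4 markers of 2-cell-like cells to at most 3.62 CPM in any of the 11 libraries. The part of these markers in the interaction was not tested. Mapk3, the Erk1 gene, averaged 13.8 ± 3.87 CPM in PP1_4OHT, 11.8 ± 0.775 CPM in PP1, 13.5 ± 3.11 CPM in 4OHT and 13.6 ± 0.467 CPM in DMSO (SD, n = 3, 3, 3 and 2). Since the labels do not say which part of the gene was removed, this level is no check of the knockout.

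PP1 changed the 4OHT response of many genes, in both directions. At a Benjamini-Hochberg adjusted p under 0.05 (edgeR quasi-likelihood test, the threshold for every call below), the interaction was higher for 2246 genes (15.1%) and lower for 1697 genes (11.4%). Among these, 740 and 644 genes differed by at least 2-fold. With PP1 present, 4OHT raised 2748 genes (18.4%) and lowered 1913 (12.8%), whereas without inhibitor it raised 3832 (25.7%) and lowered 3920 (26.3%). Responses of at least 2-fold were fewer with PP1, 155 rises and 523 falls, than without it, 952 rises and 1796 falls. PP1 alone against DMSO raised 12 genes (0.0805%) and lowered 24 (0.161%). That count was unstable: the 36 calls became 4 and 3 without DMSO clone b or c, 19 and 14 without 4OHT clone a or c, 14 and 9 without PP1 clone a or b, and 13, 9 and 23 without PP1_4OHT clone a, b or c, and DESeq2 called 85.

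The balance of the interaction depended on scaling. With the TMM scaling used here 57.0% of the called genes were higher and the median interaction of all genes was 0.04 on the log2 scale. When scaled by library totals alone, the median moved to 0.45 and 89.3% of 4157 calls were higher, and without the 14 loci as well it was 0.19, with 75.6% of 4668 calls higher. Directions below are relative to the TMM centre. Of the genes named below, the calls of Gabpa, Spred1, Egr2, Erf, Heatr1, Ier2, Maff, Mafk, Srebf2, Braf and Rps6ka3 were lost with library totals, and the signs of Gabpa and Spred1 turned as well. In the same setting Spry2, Otx2 and Nop2 gained a call. The uncalled interactions of Spry4, Dusp6, Egr1, Etv5, Hmces, Enc1, Zswim4, Cyp51, Rdh11, Idi1, Msmo1, Klf5, Gnl3 and Pou5f1 were negative with TMM and positive with library totals, also uncalled. With DESeq2 size factors Etv5 and Hmces gained a call, Zc3h12a lost it, and Sox2, near 0, changed sign.

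Responses were sorted by size and by the interval of their interaction. A rise or fall is a called response to 4OHT without inhibitor of at least 2-fold. It is termed reduced where the interaction was called toward 0, and kept where the 95% interval of the interaction lay within 1.5-fold in either direction. Of 952 rises, 720 (75.6%) were reduced and 26 (2.73%) were kept, with 2 genes, Spred1 and Mkrn1, in both classes because a small reduction was measured precisely. A further 2 rises were enlarged with PP1, and 206 could not be placed. Of 1796 falls, 987 (55.0%) were reduced, 1 was kept and 808 could not be placed. Genes enter these classes by a response measured in the 4OHT and DMSO libraries, which the interaction also uses, and this by itself makes reductions more frequent than the 11.4% and 15.1% over all genes.

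**Figure D1:**
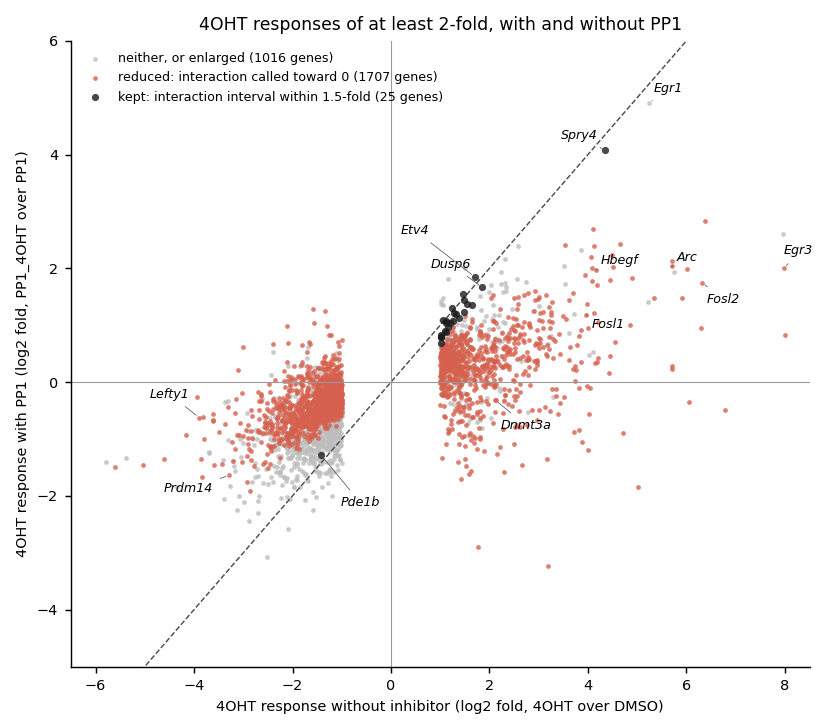
Each point is a gene with a 4OHT response of at least 2-fold without inhibitor (x axis, log2 fold of 4OHT over DMSO), set against its response with PP1 (y axis, log2 fold of PP1_4OHT over PP1). The dashed line marks equal responses. The 25 black points (24 kept rises and 1 kept fall) lie along it, with Spry4 at 4.35 and 4.07, while the 1707 red points of reduced rises (below it) and falls (above it) lie apart from it, and Spred1 and Mkrn1 are drawn among them.

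A reduced response could be weaker, not called or turned round with PP1. Among the 720 reduced rises, 324 were still called higher with PP1, 378 were not called, and 18 were called lower. Among the 987 reduced falls, 480 were still called lower with PP1, 500 were not called and 7 were called higher. Over all 952 rises the median share of the log2 response that remained with PP1 was 0.239. With the response to PP1_4OHT over PP1 taken in each clone and divided by the fitted response without inhibitor of all clones, since DMSO has no clone a, it was 0.237, 0.258 and 0.240 in clones a, b and c. Over the 1796 falls the median share was 0.352, with 0.25, 0.370 and 0.367 taken in the same way. The order of rises and falls depended on scaling, since with library totals the larger median share was that of the rises. The share of rises that were reduced was 71.5% of 632 rises of 2 to 4-fold, 82.1% of 201 rises of 4 to 8-fold and 86.6% of 119 rises of 8-fold or more. The median share of the log2 response that remained did not follow this order, at 0.244, 0.226 and 0.239. Choosing genes by the response with PP1 gave other shares. The 155 rises chosen there had a median share of 0.684 and 133 of them were also called higher without inhibitor, and the 523 falls had a median share of 0.875 with 281 also called lower.

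**Figure D2:**
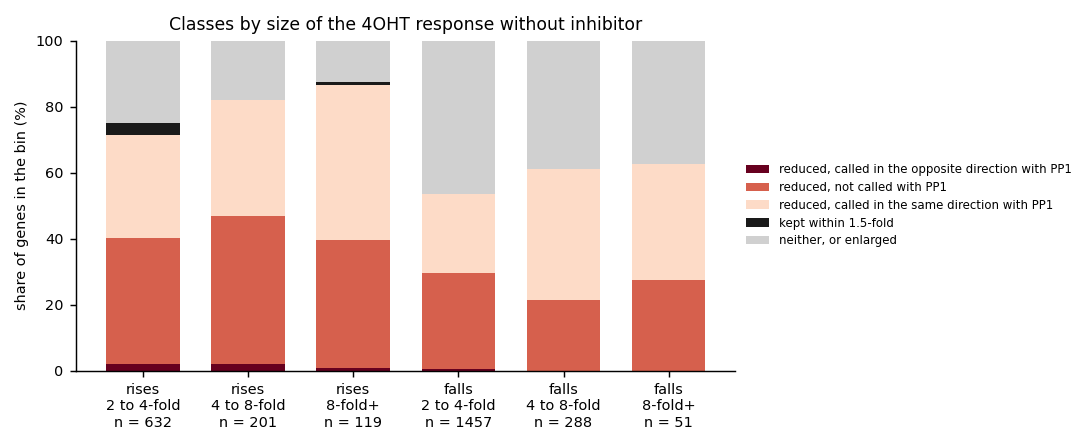
Stacked bars give the percentage of genes in each class (y axis) for rises and falls of 3 sizes (x axis, size of the 4OHT response without inhibitor, with the number of genes). Reduced genes made up 71.5%, 82.1% and 86.6% of the rises from small to large, and the black band of kept genes is visible mainly among rises of 2 to 4-fold.

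The feedback inhibitors of the Sprouty and Spred family, which dampen signalling between receptors and ERK, included 3 rises of at least 2-fold, of which Spry4 and Spred1 met the rule for a kept rise and Spred1 was also called reduced. Spry4 gave 837, 729.7 and 758 CPM in the PP1_4OHT libraries and 50.3, 41.9 and 47.3 CPM in the PP1 libraries. Without inhibitor it gave 2182, 2306 and 2473 CPM in 4OHT and 107 and 120.4 CPM in DMSO. No group overlapped another, and each level with PP1 was below its counterpart without. The response was 4.07 with PP1 and 4.35 without on the log2 scale, and the interaction of -0.28 ± 0.13 (SE, 95% interval -0.55 to -0.01, adjusted p = 0.12) met the rule for a kept rise. It met the rule in 10 of 21 other settings and was called without PP1_4OHT clone a (-0.41, adjusted p = 0.043). The increment of Spry4 over its control was smaller, at 728 CPM with PP1 against 2207 CPM without, or 33.0%. PP1 alone lowered Spry4 to 46.5 ± 4.24 CPM, against 114 ± 9.27 CPM in DMSO (SD, n = 3 and 2), a log2 difference of -1.30 (adjusted p = 2.8e-08).

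Of the 7 members tested in this family, 2 had a higher interaction and 1 a lower one (15.1% and 11.4% over all genes). The median was 0.07. Il17rd, which encodes the FGF receptor antagonist Sef, rose by 1.24 with PP1 and by 0.73 without, an interaction of 0.51 ± 0.13 (adjusted p = 0.0059). Spry1 rose by 0.71 with PP1, was not called without inhibitor at -0.21, and had an interaction of 0.92 ± 0.23 (adjusted p = 0.0042). Spred1 rose by 1.17 with PP1 and by 1.51 without, and its interaction of -0.35 ± 0.12 was called (adjusted p = 0.03). That call was lost without PP1 clone b, PP1 clone c or PP1_4OHT clone c, with adjusted p of 0.093, 0.056 and 0.07, and the sign turned to 0.07 with library totals. Spry2 rose by 0.71 with PP1 and by 0.45 without, and its interaction of 0.27 ± 0.12 missed the threshold (adjusted p = 0.11), whereas it was called at 0.69 with library totals and at 0.43 without the 14 loci as well (adjusted p = 0.024 and 0.0094).

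**Figure D3:**
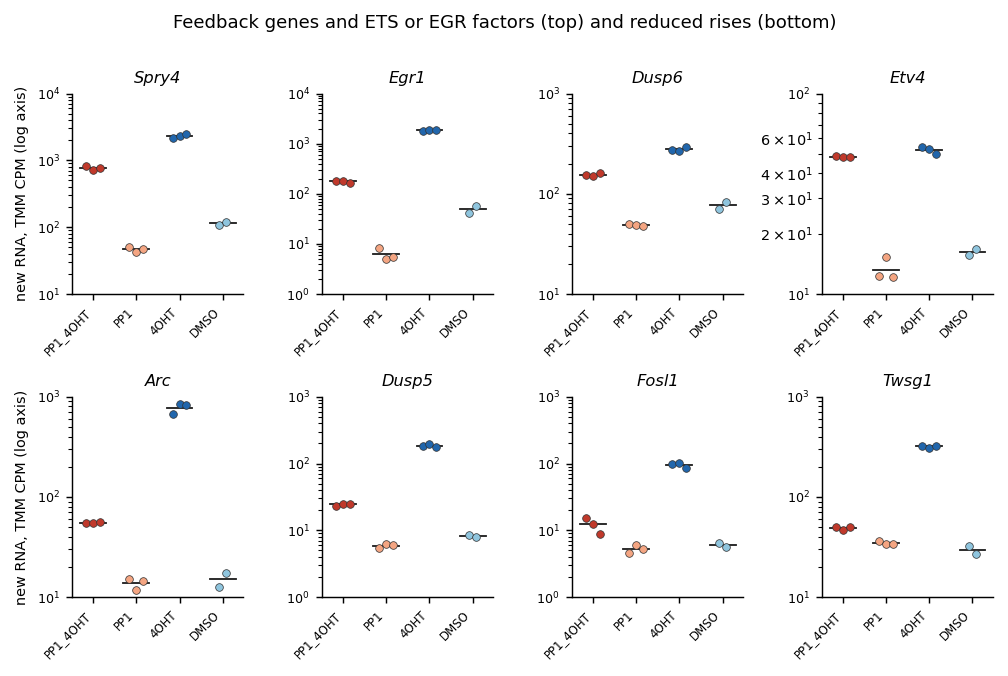
New RNA of 8 genes in each library (y axis, CPM after TMM scaling, log axis) in PP1_4OHT, PP1, 4OHT and DMSO (x axis). Points are libraries and lines are group means. In the upper row the distance between PP1_4OHT and PP1 is close to that between 4OHT and DMSO, though Spry4 and Egr1 stand lower with PP1 in both, and in the lower row Arc, Dusp5, Fosl1 and Twsg1 stay far below their 4OHT level when PP1 is present.

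The MAP kinase phosphatases, which remove the activating phosphates from ERK and its relatives, were split. Of 11 tested, 6 had a lower interaction (11.4% over all genes), with a median of -1.40, and 1, Dusp6, met the rule for a kept rise. Of the 7 rises of at least 2-fold among them 6 were reduced, beside 75.6% of all such rises. Dusp6, a phosphatase selective for ERK, gave 153, 149 and 162 CPM in PP1_4OHT and 50.3, 49.1 and 47.7 CPM in PP1 libraries, against 274, 265 and 293 CPM in 4OHT and 70.6 and 83.4 CPM in DMSO. Its groups did not overlap. The response was 1.66 with PP1 and 1.85 without, with an interaction of -0.19 ± 0.15 (interval -0.49 to 0.12, adjusted p = 0.37). As with Spry4, PP1 alone lowered it, by 0.65 on the log2 scale (adjusted p = 0.012).

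Dusp5, a nuclear phosphatase of ERK, lost most of its response. It gave 23.5, 25.1 and 24.9 CPM in PP1_4OHT and 5.36, 6.17 and 6.13 CPM in PP1 libraries, against 182, 196 and 177 CPM in 4OHT and 8.39 and 7.87 CPM in DMSO. The rise was 4.08-fold with PP1 and 22.7-fold without, an interaction of -2.48 ± 0.20 (adjusted p = 7.8e-09). The groups did not overlap, so a rise remained with PP1 but ended far below the level in 4OHT. Dusp4, a further nuclear phosphatase, had an interaction of -1.17 ± 0.19, and Dusp1 of -1.60 ± 0.25. Dusp14 and Dusp16 were not called with PP1, at -0.53 and 0.14, whereas without inhibitor they rose by 1.75 and 1.54. The sixth was Dusp2, which averaged 0.237 ± 0.0907 CPM in PP1_4OHT and 0.315 ± 0.154 CPM in PP1, against 3.81 ± 0.28 CPM in 4OHT and 0.0463 ± 0.0655 CPM in DMSO (SD, n = 3, 3, 3 and 2), too few counts for a fold.

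Among ETS factors, the PEA3 members Etv4 and Etv5, known as transcriptional targets of FGF and ERK signalling, were not called for the interaction. Etv4 gave 49.1, 48.1 and 48.1 CPM in PP1_4OHT and 12.3, 15.2 and 12.1 CPM in PP1, against 54.2, 53.1 and 50.2 CPM in 4OHT and 15.6 and 16.8 CPM in DMSO. The 4OHT group lay just above PP1_4OHT and the DMSO group just above PP1. Its rise was 1.85 with PP1 and 1.70 without, an interaction of 0.16 ± 0.17 (interval -0.19 to 0.50, adjusted p = 0.54), and 97.0% of the CPM increment was kept. Etv5 rose by 0.41 with PP1 and by 0.65 without, with an interaction of -0.24 ± 0.11 (adjusted p = 0.095) that passed the threshold with DESeq2 (adjusted p = 0.027) and without PP1_4OHT clone a (0.025). Ets1, in contrast, was not called with PP1 at -0.36 and rose by 1.64 without it (interaction -2.0 ± 0.38). Of 12 ETS factors tested, 1 had a higher interaction (Elk3, at 0.91 ± 0.21) and 3 a lower one (Ets1, Erf at -0.60 ± 0.19 and Gabpa at -0.40 ± 0.09), with a median of -0.20. Over all genes 15.1% were higher and 11.4% lower.

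Of 5 EGR zinc finger factors and NAB corepressors tested, 4 were reduced rises and 0 met the rule for a kept rise. All 5 were rises of at least 2-fold, and 75.6% of all such rises were reduced. Egr1 gave 181, 181 and 166 CPM in PP1_4OHT and 8.17, 5.08 and 5.51 CPM in PP1 libraries, against 1804, 1855 and 1899 CPM in 4OHT and 41.3 and 57.1 CPM in DMSO. The PP1 libraries stood below DMSO and the PP1_4OHT libraries far below 4OHT, with no overlap. The rise was 30.0-fold with PP1 and 37.7-fold without, so the interaction of -0.33 ± 0.23 was not called (interval -0.82 to 0.16, adjusted p = 0.33), and the interval is too wide for the rule of a kept rise. PP1 alone lowered Egr1 by 3.06 on the log2 scale (adjusted p = 2.8e-08), and the CPM increment with PP1 was 9.42% of that without. The fold with PP1 was thus close to that without, while the increment was far smaller.

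The other 4 members tested all had a lower interaction, against 11.4% of all genes. Egr3 averaged 1.31 ± 0.232 CPM in PP1_4OHT and 0.351 ± 0.14 CPM in PP1, against 92 ± 10.2 CPM in 4OHT and 0.365 ± 0.4 CPM in DMSO (SD, n = 3, 3, 3 and 2). Both control groups held few counts, so the fitted interaction of -5.98 ± 0.91 (adjusted p = 0.00027) depends on the model's treatment of low counts. Nab1 rose by 1.78 with PP1 and by 4.08 without (interaction -2.30 ± 0.20), and Nab2, which overlaps Nemp1 and Stat6, by 2.19 and 4.06 (interaction -1.86 ± 0.18). Egr2 was lower too, at -1.87 ± 0.52 (adjusted p = 0.0097), and its adjusted p was 0.052 with library totals.

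AP-1 factors, the FOS, JUN and MAF proteins that act as dimers at shared sites, were mostly reduced. Of 10 tested, 8 had a lower interaction (11.4% over all genes), and Jund and Atf3 were not called (adjusted p = 0.2 and 0.13). The median interaction was -1.85 beside 0.04 over all genes. These 8 were the rises of at least 2-fold in the list, and 75.6% of all such rises were reduced. Fosl1 gave 15.5, 12.5 and 8.74 CPM in PP1_4OHT and 4.59, 6.07 and 5.27 CPM in PP1, against 99.3, 100.5 and 86.5 CPM in 4OHT and 6.5 and 5.65 CPM in DMSO. All PP1_4OHT libraries were above all PP1 libraries and far below all 4OHT libraries. The rise was 1.18 with PP1 and 3.97 without, an interaction of -2.78 ± 0.28 (adjusted p = 1e-07). Fosl2 was further reduced, at 1.75 with PP1 and 6.32 without (interaction -4.57 ± 0.40), and Fosb had -3.53 ± 0.91 (adjusted p = 0.023) with a mean of 0.167 CPM in PP1 and 0.401 CPM in DMSO, few counts for a fold. Fos was at -2.09 ± 0.32 and Junb at -1.86 ± 0.20.

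Jun differed from these in that no response was called with PP1. It gave 8.62, 12.4 and 9.4 CPM in PP1_4OHT and 12.5, 11.5 and 13.8 CPM in PP1, groups that overlap, against 31.4, 47.9 and 41.7 CPM in 4OHT and 12.8 and 15.1 CPM in DMSO. The interaction was -1.83 ± 0.24 (adjusted p = 5.9e-06). The small MAF factors, which lack an activation domain, were reduced least, with -1.08 ± 0.21 for Maff and -0.71 ± 0.25 for Mafk.

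Among 26 other immediate early genes tested, 13 had a lower interaction (11.4% over all genes) and the other 13 were not called. The median interaction was -0.68. Of the 15 rises of at least 2-fold in this list 12 were reduced, beside 75.6% of all such rises. Arc, a cytoskeletal protein gene induced by ERK and serum response factor, gave 55.1, 55.1 and 56.4 CPM in PP1_4OHT and 15.1, 11.8 and 14.6 CPM in PP1. Without inhibitor it gave 671, 839.9 and 824 CPM in 4OHT and 12.8 and 17.3 CPM in DMSO. The 2 control groups overlapped, while PP1_4OHT lay between them and 4OHT. The rise was 4.09-fold with PP1 and 51.9-fold without, an interaction of -3.67 ± 0.17 (adjusted p = 7.8e-13), with 5.46% of the increment kept.

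Klf10 rose by 0.72 with PP1 and by 3.33 without (interaction -2.61 ± 0.27), and Klf6 was not called with PP1 at -0.01 and rose by 1.95 without it (interaction -1.96 ± 0.16). Nr4a1, an orphan nuclear receptor, rose by 1.29 and 2.56 (interaction -1.27 ± 0.16). Ier2 was reduced less, at -0.64 ± 0.15, a call that scaling by library totals removed (adjusted p = 0.47). Myc stood apart from them. It gave 40.0, 47.0 and 50.6 CPM in PP1_4OHT and 19.7, 14.0 and 14.5 CPM in PP1, against 65.2, 71.7 and 54.4 CPM in 4OHT and 20.1 and 26.0 CPM in DMSO. Its rise was 1.56 with PP1 and 1.47 without, and the interaction of 0.09 ± 0.23 lay within 1.5-fold (interval -0.38 to 0.56, adjusted p = 0.81), which held in 12 of 21 other settings.

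Among 16 delayed early and secreted targets of ERK, which follow the immediate early factors, 11 were reduced rises and 1, Lif, had a higher interaction. The median was -1.58, and over all genes 11.4% had a lower and 15.1% a higher interaction. These 11 were the rises of at least 2-fold in the list, and 75.6% of all such rises were reduced. Plaur, the urokinase receptor, rose by 2.43 with PP1 and by 4.66 without (interaction -2.23 ± 0.21), and Hbegf, a ligand of the EGF receptor, by 1.97 and 4.16 (interaction -2.19 ± 0.16). Phlda1 averaged 14.3 ± 1.12 CPM in PP1_4OHT and 3.37 ± 0.425 CPM in PP1, against 185 ± 5.62 CPM in 4OHT and 3.5 ± 0.631 CPM in DMSO (SD, n = 3, 3, 3 and 2). Its interaction was -3.59 ± 0.24 (adjusted p = 3.8e-10). Lif, the cytokine that maintains the naive state, fell without inhibitor by 1.17 and was not called with PP1 at 0.20 (interaction 1.37 ± 0.29, adjusted p = 0.0011).

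**Figure D4:**
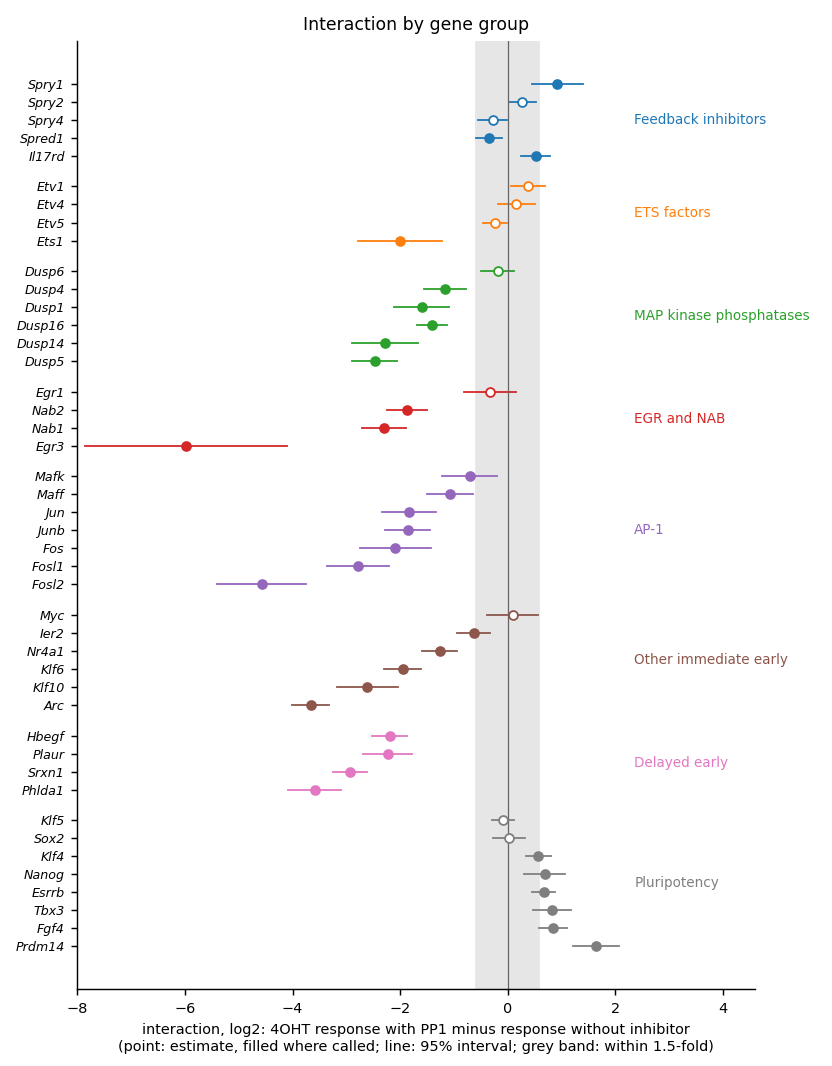
The interaction of genes in 8 groups (x axis, log2; points are estimates, filled where called, lines are 95% intervals, and the grey band marks 1.5-fold in either direction; y axis, genes). Spry4, Dusp6, Etv4, Myc, Klf5 and Sox2 lie inside the band, AP-1 and delayed early genes lie to the left of 0, and Prdm14 at 1.64 is the rightmost of the pluripotency genes drawn.

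The reduced rises of smallest adjusted p lay outside the classical immediate early families, apart from Arc. Twsg1, which encodes a secreted modulator of BMP signals, gave 49.9, 46.3 and 50.2 CPM in PP1_4OHT and 36.2, 34.2 and 33.8 CPM in PP1, against 320.1, 310.1 and 326 CPM in 4OHT and 32.1 and 26.9 CPM in DMSO. Its rise was 1.41-fold with PP1 and 10.8-fold without (interaction -2.94 ± 0.13, adjusted p = 5e-13). Srxn1, which restores oxidised peroxiredoxins, rose by 0.92 with PP1 and by 3.86 without (interaction -2.93 ± 0.15), and Anxa7, an annexin that binds calcium and membranes, by 0.79 and 3.21 (interaction -2.42 ± 0.12). Gprc5a, an orphan receptor, had an interaction of -2.66 ± 0.14. Slc4a7, a bicarbonate transporter, was at -1.92 ± 0.12 and Wdr26, a subunit of a ubiquitin ligase complex, at -1.82 ± 0.11. In these 6 genes a called rise remained with PP1, and at most 13.0% of the increment was kept.

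The other kept rises named by rule were Hmces, Enc1, Zswim4, Cyp51 and Rdh11. Hmces, which shields abasic sites in DNA, gave 202, 209 and 185 CPM in PP1_4OHT and 86.3, 77.1 and 71.4 CPM in PP1, against 293, 315 and 299 CPM in 4OHT and 100.4 and 92.6 CPM in DMSO. The groups did not overlap, and its interaction was -0.29 ± 0.12 (interval -0.53 to -0.05, adjusted p = 0.065), called under 11 of 21 settings, among them the fit with clone as a block. Enc1, a substrate adaptor of a ubiquitin ligase, had an interaction of -0.18 ± 0.12 and met the rule in 19 of 21 settings. Cyp51, a demethylase of sterol synthesis that overlaps Akap9, had -0.26 ± 0.15 and met it in 4 settings. Zswim4 had -0.25 ± 0.16 and met it in 5 settings, and Rdh11, a retinol dehydrogenase, had -0.13 ± 0.20 and met it in 12. The count of kept rises was thus less stable than that of reduced rises. It was 16 without DMSO clone b, 10 without DMSO clone c, 15, 17 and 17 without 4OHT clone a, b or c, and 14 and 15 without PP1_4OHT clone a or b, and it was 4 with library totals.

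Promoter windows from RefSeq (GRCm38.p6, 250 bases before to 50 after an annotated start, 5′ to 3′ on the strand of the gene) are shown for kept rises Dusp6 and Hmces and for Twsg1, the reduced rise of smallest adjusted p. They let the windows behind the motif counts be read, with matches in capitals. Dusp6 (chr10:99262981-99263280, plus strand) and Twsg1 (chr17:65951138-65951437, minus strand) hold none of the 4 motifs searched. Hmces (chr6:87913726-87914025, plus strand) holds 1 match to the ETS motif CCGGAA, on the reverse strand, and hence the capitals read TTCCGG.
Dusp6: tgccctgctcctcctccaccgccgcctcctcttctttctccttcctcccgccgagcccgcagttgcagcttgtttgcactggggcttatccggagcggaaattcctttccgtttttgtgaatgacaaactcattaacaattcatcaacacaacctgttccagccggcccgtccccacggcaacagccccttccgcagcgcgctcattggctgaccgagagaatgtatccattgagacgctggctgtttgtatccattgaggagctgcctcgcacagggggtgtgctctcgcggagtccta
Hmces: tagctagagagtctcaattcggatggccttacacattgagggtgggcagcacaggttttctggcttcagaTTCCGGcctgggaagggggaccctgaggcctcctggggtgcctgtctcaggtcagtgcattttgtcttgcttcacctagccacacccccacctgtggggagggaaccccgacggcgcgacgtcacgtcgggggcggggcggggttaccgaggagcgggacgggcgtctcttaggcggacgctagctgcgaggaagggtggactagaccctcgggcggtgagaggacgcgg
Twsg1: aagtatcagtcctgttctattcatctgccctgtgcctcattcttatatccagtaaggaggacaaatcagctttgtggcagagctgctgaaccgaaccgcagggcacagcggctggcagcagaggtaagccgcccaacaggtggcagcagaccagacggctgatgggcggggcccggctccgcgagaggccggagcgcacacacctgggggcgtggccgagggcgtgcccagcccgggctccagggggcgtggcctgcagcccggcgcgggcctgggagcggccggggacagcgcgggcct

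The motifs were the CArG box of serum response factor, CCGGAA of ETS factors, TGANTCA of AP-1 and GCGNGGGCG of EGR factors, each on both strands, with overlaps between motifs allowed. Windows were at hand for 19 of 26 kept rises, 540 of 720 reduced rises, 725 of 987 reduced falls and 11322 of 14907 genes tested. CCGGAA was in 26.3% of kept rises, 21.9% of reduced rises and 18.3% of reduced falls, against 28.2% of all genes tested. TGANTCA was in 10.5%, 13.3% and 6.48%, against 6.46%, and GCGNGGGCG in 5.26%, 19.3% and 10.9%, against 12%. The CArG box was in 0 of 19 kept rises, 3.33% of reduced rises and 2.62% of reduced falls, against 1.58%. Over all 32851 windows of this length the shares were 14.9% for CCGGAA, 7.81% for TGANTCA, 5.55% for GCGNGGGCG and 1.63% for the CArG box. These shares are descriptions and were not tested.

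SREBP factors drive the genes of cholesterol synthesis. Of 22 tested, 19 rose with PP1 and 16 without inhibitor, 3 had a higher and 2 a lower interaction, and the median interaction was 0.05. Over all genes tested, 18.4% rose with PP1 and 25.7% without, and 15.1% had a higher and 11.4% a lower interaction. Idi1 rose by 1.22 with PP1 and by 1.29 without, and Msmo1 by 1.04 and 1.20, and both met the rule for a kept rise. Nsdhl, a sterol dehydrogenase, rose by 1.18 with PP1 and by 0.45 without (interaction 0.73 ± 0.17, adjusted p = 0.002), and Lss, lanosterol synthase, by 1.32 and 0.71 (interaction 0.61 ± 0.20, adjusted p = 0.027). Srebf2, the gene of the SREBP2 factor itself, was reduced at -0.57 ± 0.12. Of 30 genes of ribosome biogenesis, 20 rose with PP1 and 22 without, 1 had a higher and 4 a lower interaction, and the median was -0.15. Heatr1, which acts in ribosomal RNA transcription, was lowest at -0.59 ± 0.17, and Nop2 and Gnl3 at 0.11 ± 0.14 and -0.02 ± 0.13 were not called.

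Among 27 genes of naive pluripotency, 9 had a higher interaction, that is, a weaker fall, a stronger rise or a fall turned to a rise with PP1. A lower one was called for 2, which were reduced rises (15.1% higher and 11.4% lower over all genes). The median interaction was 0.24. Prdm14, which represses FGF receptor signalling, gave 16.6, 18.1 and 20.8 CPM in PP1_4OHT and 51.8, 56.7 and 62.2 CPM in PP1, against 4.27, 7.24 and 5.16 CPM in 4OHT and 51.0 and 53.2 CPM in DMSO. The control groups overlapped, and PP1_4OHT lay between them and 4OHT. The fall was 3.11-fold with PP1 and 9.72-fold without, an interaction of 1.64 ± 0.21 (adjusted p = 2.2e-06), and 82.6% of the drop in CPM was kept.

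Nanog gave 238, 241 and 258 CPM in PP1_4OHT and 399, 299.8 and 319 CPM in PP1, against 133, 185 and 131 CPM in 4OHT and 296 and 363 CPM in DMSO. Here too PP1_4OHT lay between 4OHT and overlapping controls. The fall was 0.46 with PP1 and 1.15 without, and the interaction of 0.68 ± 0.18 (adjusted p = 0.0094) was not called without DMSO clone c, 4OHT clone a, 4OHT clone c or PP1_4OHT clone b (adjusted p = 0.17, 0.078, 0.073 and 0.053). Tbx3 was at 0.82 ± 0.17, Klf4 at 0.57 ± 0.11 and Fgf4, the main FGF ligand of these cells, at 0.84 ± 0.13. Esrrb turned: it rose by 0.23 with PP1 and fell by 0.44 without inhibitor, an interaction of 0.67 ± 0.11 (adjusted p = 4.7e-05). Klf5 was a kept rise, at 1.03 with PP1 and 1.12 without (interaction -0.08 ± 0.10). The factors of core pluripotency Pou5f1 and Sox2 were not called, at -0.31 ± 0.37 and 0.02 ± 0.14, and Otx2 of the formative state had 0.55 ± 0.24 (adjusted p = 0.093). It was called with clone as a block (adjusted p = 0.046), with library totals (0.97, adjusted p = 0.0097) and with library totals without the 14 loci (0.71, adjusted p = 0.023).

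**Figure D5:**
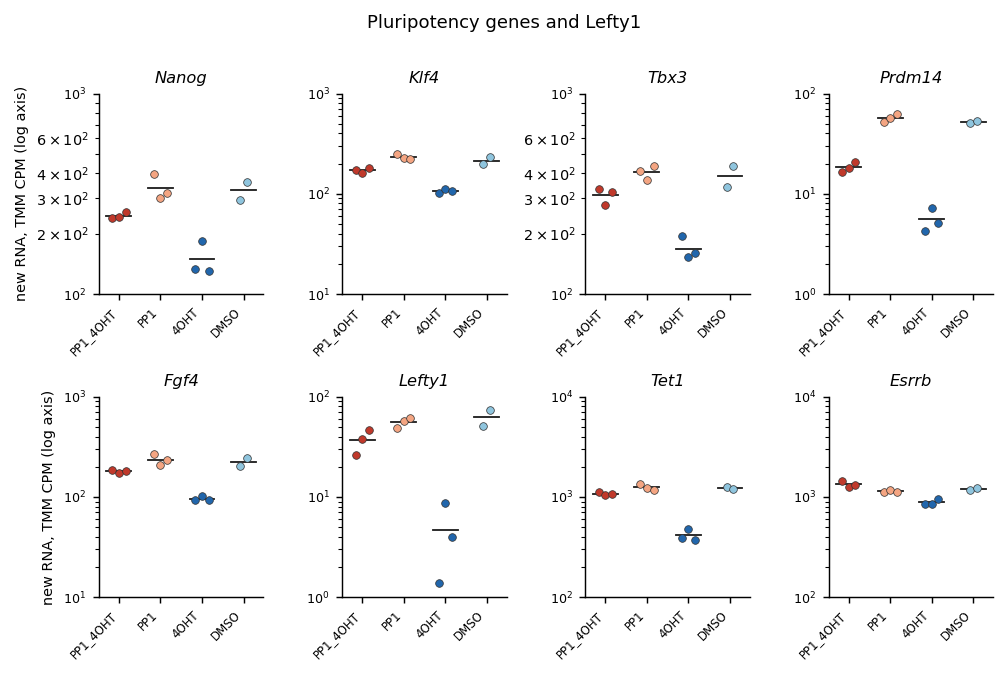
New RNA of 8 genes in each library (y axis, CPM after TMM scaling, log axis) in PP1_4OHT, PP1, 4OHT and DMSO (x axis). Points are libraries and lines are group means. In Nanog, Klf4, Tbx3, Prdm14, Fgf4, Lefty1 and Tet1 the PP1_4OHT libraries lie between 4OHT and the controls, and in Esrrb they lie above all other groups.

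The reduced falls of smallest adjusted p were led by Azin2, St8sia1 and Tet1. Azin2, an inhibitor of the antizymes that limit polyamines, gave 46.9, 47.9 and 41.6 CPM in PP1_4OHT and 36.5, 41.3 and 42.9 CPM in PP1, against 14.2, 16.2 and 17.3 CPM in 4OHT and 52.5 and 50.8 CPM in DMSO. No fall was called with PP1 (0.17, adjusted p = 0.18), and the interaction was 1.87 ± 0.15 (adjusted p = 2.2e-09). St8sia1, a sialyltransferase of gangliosides, fell 1.82-fold with PP1 and 7.17-fold without (interaction 1.98 ± 0.16). Tet1, which oxidises methylated cytosine, gave 1110, 1041 and 1061 CPM in PP1_4OHT and 1332, 1225 and 1185 CPM in PP1, against 391, 475 and 373 CPM in 4OHT and 1253 and 1194 CPM in DMSO. It fell by 0.22 with PP1 and by 1.57 without (interaction 1.35 ± 0.11, adjusted p = 5.6e-09).

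Lifr, the receptor for LIF, was not called with PP1 at -0.16 and fell by 1.28 without (interaction 1.12 ± 0.09). Irak3, a brake on Toll-like receptor signals that overlaps Tmbim4, had an interaction of 1.64 ± 0.14, and Mtss1, a membrane-bending scaffold, of 1.06 ± 0.09. Mcf2, a guanine nucleotide exchange factor, was at 1.64 ± 0.15, and Plpp3, a lipid phosphatase, at 2.10 ± 0.18. The single kept fall was Pde1b, a phosphodiesterase of cyclic nucleotides. It gave 14.8, 17.3 and 13.9 CPM in PP1_4OHT and 32.9, 39.6 and 38.7 CPM in PP1, against 11.1, 9.48 and 11.8 CPM in 4OHT and 28.3 and 30.2 CPM in DMSO. Its interaction was 0.14 ± 0.19 (interval -0.27 to 0.54, adjusted p = 0.65), and the count of kept falls moved between 0 and 6 as single libraries were left out: 3 without DMSO clone b, 4 and 5 without 4OHT clone b or c, 4, 0 and 0 without PP1 clone a, b or c, and 6, 4 and 0 without PP1_4OHT clone a, b or c.

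Genes of Nodal signalling, a TGF-beta family pathway that also acts in pluripotent cells, included further reduced falls. Of 10 tested, 4 had a higher and 1 a lower interaction (15.1% and 11.4% over all genes), with a median of 0.37. Lefty1, a secreted inhibitor of Nodal, gave 26.0, 37.7 and 47.0 CPM in PP1_4OHT and 48.5, 57.4 and 61.5 CPM in PP1, against 1.39, 8.79 and 3.98 CPM in 4OHT and 51.3 and 73.9 CPM in DMSO. The fall without inhibitor was 3.90, none was called with PP1 (-0.62), and the interaction was 3.27 ± 0.58 (adjusted p = 0.00097). Lefty2 followed with 2.12 ± 0.54 (adjusted p = 0.012), and Tdgf1, the Nodal coreceptor, with 0.72 ± 0.10. Skil, a repressor of SMAD proteins, was the lower one, rising by 0.78 with PP1 and by 2.32 without (interaction -1.54 ± 0.11).

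For some genes 4OHT had opposite called effects with and without PP1. Under other settings only the interaction of these genes was followed, not their separate responses with and without PP1. Dnmt3a, a de novo DNA methyltransferase, gave 29.9, 29.1 and 24.8 CPM in PP1_4OHT and 30.4, 36.3 and 36.9 CPM in PP1, against 137, 126 and 136 CPM in 4OHT and 31.7 and 29.7 CPM in DMSO. It fell by 0.32 with PP1 (adjusted p = 0.03) and rose by 2.12 without, an interaction of -2.43 ± 0.16. Sertad2, a transcriptional coregulator, fell by 0.29 and rose by 1.57, and Dsp, the desmosomal protein desmoplakin, fell by 0.83 and rose by 2.28. Plagl1, an imprinted zinc finger factor, fell by 0.50 with PP1 and rose by 1.29 without, and Zfp459 rose by 0.69 and fell by 0.43.

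The 2 enlarged rises were Slc39a14 and Zc3h12a. Slc39a14, a zinc and iron transporter, gave 191, 202 and 191 CPM in PP1_4OHT and 43.4, 62.1 and 58.6 CPM in PP1, against 168, 194 and 197 CPM in 4OHT and 86.4 and 81.5 CPM in DMSO. The 4OHT and PP1_4OHT groups overlapped, and the larger fold with PP1 came with a lower PP1 level, for which PP1 against DMSO was not called (-0.59, adjusted p = 0.077). The interaction was 0.65 ± 0.17 (adjusted p = 0.0077), and it was not called without DMSO clone b (adjusted p = 0.06). Zc3h12a, an endoribonuclease of inflammatory mRNAs, had 0.50 ± 0.18 (adjusted p = 0.046) and was called in 7 of 21 settings.

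A set of 415 genes was called for the interaction though 4OHT without inhibitor was not called, 283 higher and 132 lower. With PP1, 231 of them were called higher and 87 lower, beside 18.4% and 12.8% of all genes tested. Choosing genes in this way by itself makes a called response with PP1 more frequent, and an uncalled response without inhibitor need not be absent. Glo1, which detoxifies methylglyoxal and overlaps Dnah8, gave 247, 231 and 225 CPM in PP1_4OHT and 126, 129 and 128 CPM in PP1, against 141, 123 and 127 CPM in 4OHT and 142 and 147 CPM in DMSO. The PP1_4OHT libraries stood above all others. The response was 0.88 with PP1 and -0.15 without (adjusted p = 0.11), an interaction of 1.03 ± 0.10 (adjusted p = 9.7e-08). Bcar1, a Src substrate in focal adhesions, had 0.90 ± 0.14, Eng, a TGF-beta coreceptor that overlaps Fpgs, 0.89 ± 0.14, Kifc5b, a kinesin, 0.78 ± 0.11, and Gpat4, an acyltransferase of glycerolipids, 0.74 ± 0.12.

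Of 21 genes of the RAS to ERK pathway tested, 8 had a lower and 2 a higher interaction (11.4% and 15.1% over all genes). The median was -0.23. Braf was not called with PP1 at 0.18 and rose by 1.10 without (interaction -0.93 ± 0.12). Rps6ka3, an ERK-activated kinase, was at -1.08 ± 0.15.

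The response to 4OHT in the presence of a MEK inhibitor (MEKi at 1 µM, n = 3 with 4OHT and n = 3 without) was measured in libraries that the interaction does not compare. They did enter the same fit, and so the filter, the scaling and the spread behind its intervals. Of the 26 kept rises, 10 (38.5%) were lower and 9 (34.6%) higher with MEKi and 4OHT than with MEKi alone, against 7.03% and 7.65% of all genes tested. The 10 lower genes included Spry4, Dusp6, Etv4, Myc, Spred1, Klf5 and Hmces, and the 9 higher ones included Cyp51, Idi1, Msmo1 and Rdh11. Spry4 fell to 1.6 ± 0.563 CPM in MEKi_4OHT, against 17.6 ± 1.53 CPM in MEKi (SD, n = 3 each), and Myc to 1.3 ± 0.212 CPM, against 8.1 ± 2.04 CPM. Msmo1 rose to 127 ± 17 CPM in MEKi_4OHT, against 68.2 ± 3.08 CPM in MEKi. Of the 720 reduced rises, 74 (10.3%) were lower and 83 (11.5%) higher, among them Twsg1 at 0.30 (adjusted p = 0.027), while Arc at 0.03 was not called. Of the 987 reduced falls, 148 (15.0%) were lower and 73 (7.4%) higher.

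Kept rises had a shorter median span and a higher median level than reduced ones. The median span from first to last annotated base (GENCODE M21, mm10) was 15642 bases over kept rises, 25027 over reduced rises with a span, 41275 over reduced falls with a span and 27014.5 over all genes with a span. The median of mean log2 CPM was 5.80, 4.68, 4.11 and 4.34 in the same order. A kept call needs a narrow interval and thus favours genes with many counts. PP1 alone was called lower for 3 kept rises, Spry4, Dusp6 and Zfp719, the last named after its value was seen. Of the reduced rises 1 was called lower and 1 higher, beside 0.161% and 0.0805% of all genes tested. The PP1 and DMSO libraries also enter the interaction, and a low PP1 level raises the fold with PP1. These counts are therefore not independent of the classes.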

How the data were processed

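Newly made RNA of 17 libraries was measured after capture of ethynyl uridine-labelled RNA. The authors deposited raw counts per gene symbol, made with STAR, mm10 and featureCounts per the submitters' processing notes, with versions and strand setting not given in the sources used here. Without strand, reads of overlapping genes cannot be told apart (among those named, Nab2, Cyp51, Idi1, Junb, Fosl1, Dusp1, Dsp, Glo1, Eng, Irak3, Spry1, Tet1, Otx2, Braf, Heatr1, Gnl3 and Mafk). All 17 libraries entered 1 robust edgeR 4.0.16 quasi-likelihood fit (R 4.3.3) with TMM scaling, edgeR's filter on low counts (14907 of 25899 genes kept), 1 term per group, 11 residual degrees of freedom and Benjamini-Hochberg adjustment over all genes tested. On simulated data of 14668 genes the interaction test recovered 20% of 1.5-fold, 60.7% of 2-fold and 75.4% of 4-fold changes. There were 1.9% false calls, and 95.4% of intervals held the true value. The simulated counts followed the fitted model, with few changed genes, no 4OHT response and no clone effect. These rates therefore check the procedure and do not carry over to the calls and intervals of the real libraries.

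Clone letters in the labels pair libraries. Deviations from group means had a mean correlation of 0.0859 over 40 pairs of the same clone (-0.147 to 0.362, 16 over 0.1). Over 80 pairs of different clones it was -0.0425 (-0.404 to 0.404, 8 over 0.1). The second mean is largely tied to the first, since deviations within a group sum to 0. Named genes were the first reduced rises (10), kept rises (10) and reduced falls (8), all kept falls, and up to 5 genes each with opposite, enlarged or interaction-only responses, by adjusted p or, for kept genes, by size of the response, with a mean log2 CPM of at least 1 and clones of 1 sign, besides list members and fixed genes, and some of these are not reported here. Members, lists and fixed genes were chosen with earlier results of these data known. Spans and overlaps are from GENCODE M21 and promoter windows from RefSeq. Alternatives were other scalings (DESeq2 1.42.0 size factors, library totals), other filters, DESeq2, limma-voom (limma 3.58.1), clone as a block, only the 11 libraries, no high-count loci, each library left out, and other fold limits.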

Additional observations from a re-analysis of the deposited data

Results flagged for a closer look

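The 4OHT response differed between cells with PP1 and cells without inhibitor, by the test of the interaction term, for 3943 genes. Among the genes named by rule, those called in opposite directions had interactions of -2.43 (Dnmt3a), -1.87 (Sertad2), -3.11 (Dsp), 1.13 (Zfp459) and -1.80 (Plagl1) on the log2 scale. The enlarged rises had 0.65 (Slc39a14) and 0.50 (Zc3h12a). The genes called for the interaction and not for 4OHT without inhibitor had 1.03 (Glo1), 0.78 (Kifc5b), 0.90 (Bcar1), 0.89 (Eng) and 0.74 (Gpat4). Each of these differences was tested by the interaction term itself, and groups of 2 or 3 libraries are too small for a test of single outlying libraries.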

How the results depend on the processing

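The number of genes called for the interaction stayed between 2894 and 4668 under the settings run at any fold. Over single named genes and settings 1192 values stayed called or stayed uncalled, 21 gained a call and 25 lost it. A further 1 lost its call and changed sign. Uncalled values that changed sign, such as Spry4 and Dusp6 with library totals, are counted among the 1192. Library totals as the only scaling moved most: 2668 genes called for 4OHT with PP1, 14 for PP1 alone, 361 reduced and 4 kept rises, 1797 reduced and 2 kept falls, 1 enlarged rise and median shares of 0.322 for rises and 0.203 for falls, and Spred1 (0.0668) turned. Library totals without the 14 high-count loci, a setting chosen after seeing the data, gave 17 kept rises, 1574 reduced and 4 kept falls, 1 enlarged rise and a share of 0.205 for rises. DESeq2 size factors gave 3 kept falls, 1 enlarged rise and a share of 0.222. DESeq2 gave 85 calls for PP1 alone, 3 kept falls, 1 enlarged rise and a share of 0.224. Without a filter there were 2 kept falls, 1 enlarged rise and a share of 0.224, and with at least 10 counts per library of a group, or limma-voom, 1 enlarged rise. With only the 11 libraries PP1 alone had 19 calls and without the high-count loci 23, each with 1 enlarged rise, and the share without these loci was 0.224. Leaving out single libraries gave 3 to 32 calls for PP1 alone, 10 to 24 kept rises, 0 to 6 kept falls, 0 to 2 enlarged rises and shares of 0.205 to 0.25 for rises. A limit of 1.5-fold for responses gave 1238 reduced and 306 kept rises with 1560 reduced and 67 kept falls, and a limit of 4-fold gave 268, 1, 208 and 0. The narrower band tried gave 2 kept rises and 0 kept falls, and a band of 2-fold 128 and 148. An interaction of at least 2-fold was called for 1384 genes. With clone as a replicate block 4323 genes were called, and Otx2 (0.51, adjusted p = 0.046) and Hmces (-0.29, adjusted p = 0.037) were the calls it changed among named genes. The cause of these moves was not tested. With 2 DMSO libraries and a median standard error of 0.22, interactions under 1.5-fold were mostly beyond this depth and number of clones.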

Other observations

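Lineage genes outside the pluripotency lists are given beside the 15.1% higher and 11.4% lower over all genes. Of 15 primitive endoderm genes tested, 4 had a higher and 3 a lower interaction (median -0.52). Lama1, Col4a1 and Col4a2, which encode basement membrane proteins, and Dab2, an endocytic adaptor, were reduced falls, with interactions of 0.81 ± 0.11, 0.68 ± 0.18, 0.72 ± 0.22 and 0.95 ± 0.34. Sparc, a matrix protein, averaged 143 ± 3.39 CPM in PP1_4OHT and 95.1 ± 17.5 CPM in PP1, against 319 ± 8.44 CPM in 4OHT and 76.6 ± 5.54 CPM in DMSO (SD, n = 3, 3, 3 and 2), an interaction of -1.45 ± 0.17. Of 9 trophoblast genes, 4 had a lower interaction (median -0.82). Cdx2, which drives trophectoderm, averaged 0.249 ± 0.0485 CPM in PP1_4OHT and 0.317 ± 0.353 CPM in PP1, against 6.22 ± 2.77 CPM in 4OHT and 0.0411 ± 0.0582 CPM in DMSO. Of 15 formative genes, 1 had a higher and 4 a lower interaction, with Pou3f1 at -3.0 ± 0.46, of 9 core pluripotency genes 1 a higher one, of 7 neuroectoderm genes 2 a higher and 1 a lower one, and of 2 2-cell-like genes 1 a lower one. Fn1 had an interaction of 0.80 ± 0.30 (adjusted p = 0.069), and the other 4 fibroblast markers tested were not called either.

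Signalling targets and housekeeping groups gave mixed counts, beside the same 15.1% higher and 11.4% lower over all genes. Of 11 BMP targets, 3 had a higher and 1 a lower interaction: Smad6 (1.21 ± 0.16), Id4 (1.37 ± 0.24) and Bambi (0.55 ± 0.19) were reduced falls, and Id1 (-2.60 ± 0.28) was a reduced rise. Of 10 Wnt targets, 2 had a higher interaction, Ccnd1 (1.22 ± 0.23) and Notum, and 1 a lower one, Tcf7 (-1.34 ± 0.16). Of 15 Src, YAP and adhesion targets, 3 had a higher and 7 a lower interaction (median -0.56), with Itgb1, an integrin chain, at -1.20 ± 0.10. Of 16 cytoskeletal targets of SRF and MRTF, 1 had a higher interaction, Tpm1 (1.00 ± 0.17), and 4 a lower one. Of 17 p53 targets, 12 rose with PP1 and 7 without (18.4% and 25.7% over all genes). A higher interaction was called for 4: Phlda3 (0.85 ± 0.18), Trp53inp1 (0.56 ± 0.11), Bax (0.39 ± 0.13) and Aen (0.38 ± 0.13). Perp, at -1.69 ± 0.38, had a lower one. Of 14 heat shock genes, 4 had a lower interaction (median -0.48), and of 13 genes of the integrated stress response 1 had a higher and 2 a lower one. Of 23 cell cycle genes, 2 had a higher and 7 a lower interaction, and of 14 replication-dependent histone genes 6 a lower one (median -1.12). PP1 alone was called higher for 4 of the histone genes, and its median effect over the 14 was positive. The PP1 and DMSO libraries also enter the interaction, and a high PP1 level lowers the fold with PP1. The lower interactions are therefore not independent of this effect and need not be lost 4OHT responses. With PP1, 4OHT lowered 5 of the 14, and without inhibitor it raised 4 and lowered 1. In PP1 clone a Hist1h4d had 92.4 CPM, against 39.5 and 42.0 CPM in PP1 clones b and c. Without PP1 clone a, PP1 alone was called higher for 1 histone gene, and the interaction was then lower for 4 (median -0.84). Other single libraries moved these counts as well. Left out in turn, they gave 0 (DMSO clone b) to 6 (PP1 clone c) histone genes called for PP1 alone. The interaction was lower for 1 to 9 in the same 2 settings. With DESeq2 size factors the calls of Dab2, Bambi, Notum, Bax and Aen were lost (adjusted p = 0.052, 0.051, 0.064, 0.059 and 0.054), and Fn1 was called with library totals (1.28, adjusted p = 4e-04).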
